A study of Mus musculus with 7 samples.

Results

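Dendritic cells take up antigen and show it to T cells, and their subsets are told apart by a small number of genes. The genes described here are 7 such markers: Xcr1, Clec9a, Siglech, Itgax, Zbtb46, Fscn1 and Batf3. A probe set, the group of array probes that reports on a transcript, was included where the platform annotation names 1 of these genes and no other. This gave 12 probe sets of 6 genes, out of 45101 probe sets on the array. No probe set carries the name of Clec9a in the annotation used here, so Clec9a was not analysed here.

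RNA came from B cells that were isolated from spleens with a magnetic B-cell kit. The 4 wild-type (WT) samples are from FVB mice, and the 3 transgenic (TG) samples are from FVB mice that carry Eu-miR-155. In that transgene the immunoglobulin heavy chain enhancer Eµ drives the microRNA miR-155 in B cells. Age and sex are not in the labels, and each sample was hybridised to 1 array and taken as 1 mouse. Values are GCRMA expression levels on a log2 scale, on which a difference of 1 is a doubling. The lowest level in the table is 2.17, and levels of 4 or less are called here not above background.

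Conventional dendritic cells fall into cDC1, which take up dying cells and present their antigens to CD8 T cells, and cDC2, which mainly present to CD4 T cells. Plasmacytoid dendritic cells (pDC) are specialised for type I interferon. Batf3 encodes a leucine zipper factor that cDC1 need for their development, and Zbtb46 a zinc finger factor of the conventional lineage. Xcr1 encodes the cDC1 receptor for the chemokine XCL1, and Clec9a a cDC1 lectin that recognises dead cells. Itgax encodes the integrin CD11c, which macrophages, natural killer cells and some B cells also carry. Fscn1 encodes the actin-bundling protein fascin of mature dendritic cells, and Siglech the pDC receptor Siglec-H.

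The sequences shown are the microRNA that separates the groups and the start regions of 3 of the genes: both that hold an AP-1 element, and Xcr1, which holds none. The mature microRNA is given as RefSeq has it (build GRCm38.p6, chr16:84714143-84714165, plus strand), with the seed, bases 2 to 8, in capitals.
mmu-miR-155-5p: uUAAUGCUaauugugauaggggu

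RefSeq places Xcr1 at chr9:123852315-123862029, Siglech at chr7:55768154-55779448, Itgax at chr7:128129526-128150657, Zbtb46 at chr2:181371009-181493262, Fscn1 at chr5:142960355-142973189, Batf3 at chr1:191098414-191108943 and Clec9a at chr6:129408862-129424764. Start regions run from 250 bases before to 50 bases after a RefSeq transcript start in GRCm38.p6, and all 7 genes had one. Capitals mark motif matches, and the letters were searched on both strands. The windows are, for Itgax, chr7:128129300-128129599 on the plus strand, for Zbtb46 chr2:181424339-181424638 on the minus strand at a start inside the gene, and for Xcr1 chr9:123861980-123862279 on the minus strand.
Itgax: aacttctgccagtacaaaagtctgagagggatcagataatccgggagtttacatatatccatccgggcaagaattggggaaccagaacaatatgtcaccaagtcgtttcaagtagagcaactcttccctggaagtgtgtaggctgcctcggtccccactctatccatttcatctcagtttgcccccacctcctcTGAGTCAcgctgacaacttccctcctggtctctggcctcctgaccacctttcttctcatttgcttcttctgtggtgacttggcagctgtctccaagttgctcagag
Zbtb46: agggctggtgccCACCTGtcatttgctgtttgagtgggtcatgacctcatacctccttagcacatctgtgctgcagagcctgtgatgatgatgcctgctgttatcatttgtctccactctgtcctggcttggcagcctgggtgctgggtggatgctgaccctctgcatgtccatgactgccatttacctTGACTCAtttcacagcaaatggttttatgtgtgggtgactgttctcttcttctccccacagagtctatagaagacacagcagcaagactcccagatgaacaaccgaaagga
Xcr1: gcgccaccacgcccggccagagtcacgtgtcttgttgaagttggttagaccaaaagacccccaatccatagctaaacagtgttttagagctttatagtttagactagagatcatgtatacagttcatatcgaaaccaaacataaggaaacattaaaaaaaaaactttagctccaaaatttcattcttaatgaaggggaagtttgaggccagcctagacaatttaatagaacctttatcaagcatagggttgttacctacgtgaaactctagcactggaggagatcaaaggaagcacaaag

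The AP-1 letters TGANTCA, the kind of element that BATF and JUN proteins bind, occurred in 2 of the 7 windows, those of Itgax and Zbtb46, and in 7.81% of 32851 start regions in the table. The E-box CAGGTG, bound by E proteins such as TCF4, occurred in 2 of 7, those of Zbtb46 and Siglech, and in 20.2% of all. Xcr1, printed for contrast, held none of the letters searched. The PU.1 letters GAGGAAGT (3.20% of all), the interferon regulatory factor pair GAAA and GAAA with 2 bases between (3.44%), and GGAA followed by GAAA with 2 bases between (2.72%) were in 0 of the 7 windows. The last motif and the pair can overlap. A match is a description of letters in the window.

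Of the conventional dendritic cell genes, Itgax, Xcr1 and Fscn1 passed as higher in the transgenic B-cell isolates and Batf3 and Zbtb46 did not pass, while the pDC gene Siglech was at the lowest level on all but 1 array. Itgax rose by 3.32 on the log2 scale, Xcr1 was at least 2.96-fold higher, and Fscn1 rose by 2.12. Batf3 and Zbtb46 had differences of 2.41 and 1.07. Of the 5 member genes tested, 3 passed a limma adjusted p under 0.05 as higher, where 8.11% of all 9517 genes tested did. In each of these 5 genes every transgenic array was above every wild-type array, as in 19.5% of all genes. Xcr1 entered the test only through its transgenic arrays, so it could not have entered without a difference, and the counts are not read as support. With the Xist level as a covariate, or without wild-type replicates 3 and 4, 0 of the 5 passed limma's adjusted threshold and 4 had an unadjusted p under 0.05 (differences of 3.18 and 3.21 for Itgax). The count was also 0 without wild-type replicate 2 or transgenic replicate 2, and all 5 had an unadjusted p under 0.05 there.

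**Figure D1:**
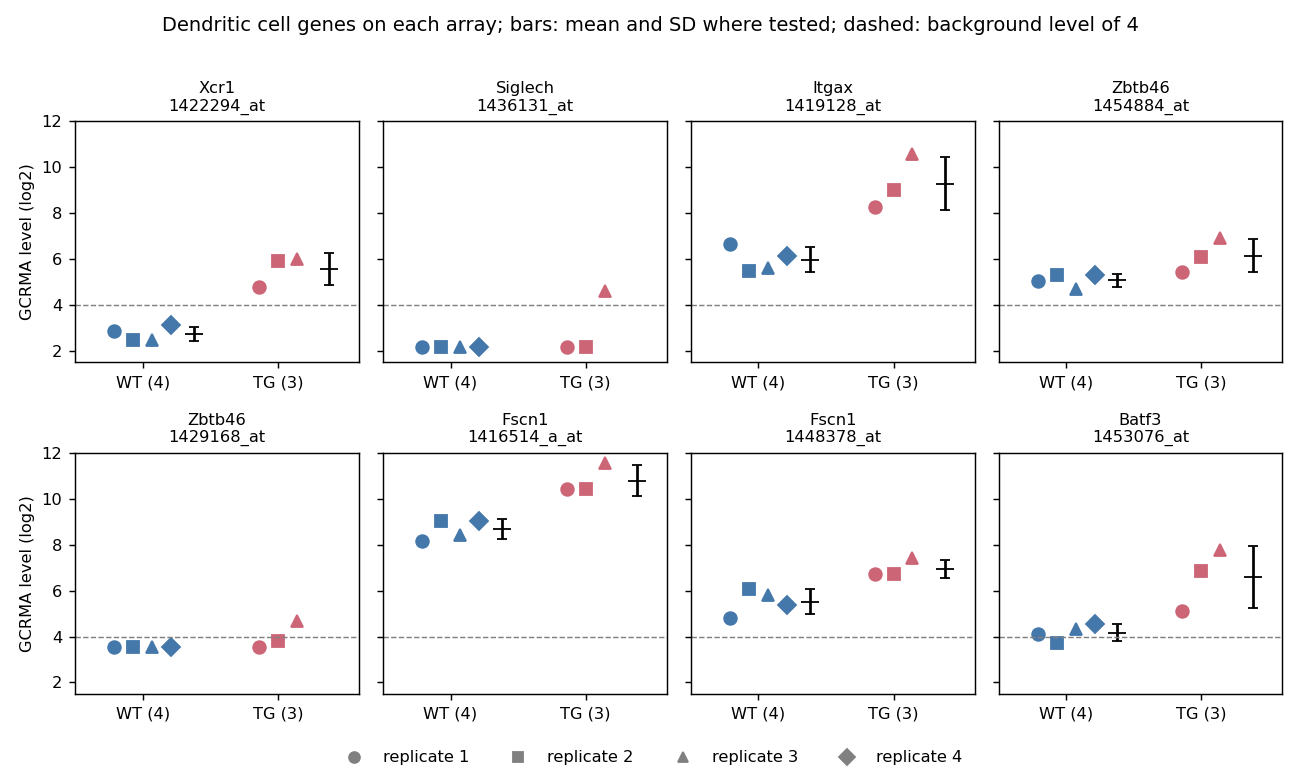
GCRMA level (log2) of 8 probe sets of the dendritic cell genes on each of 4 WT (blue) and 3 TG (red) arrays, with mean and SD where tested and the background level of 4 dashed. Itgax runs from 5.49 to 6.68 in WT and from 8.29 to 10.58 in TG, while Siglech leaves the lowest level on transgenic replicate 3 alone.

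The isolates had the genes of B cells, and some genes of other cells were above background in both groups. Most markers of other cells were not detected in wild type. There, 9 of 10 natural killer cell markers and 8 of 10 T cell markers with a probe set stayed at 4 or less. The same held for 7 of 10 granulocyte markers and 10 of 16 macrophage and monocyte markers. Of 10 B cell markers 9 had a probe set, and their mean level was 13.32 to 13.44 on the WT and 12.66 to 13.19 on the TG arrays. All 9 were tested, 0 had a positive difference (median -0.32), and 1 passed as lower, beside 2.56% of all genes. That was Fcer2a, with a difference of -0.82 (limma adjusted p = 0.0451). The Fcer2a call was lost without any 1 wild-type array (0.0808 to 0.109) or transgenic replicate 2 (0.102). Mir155hg, the host transcript of miR-155, differed by 0.05 (limma adjusted p = 0.937), and the labels do not place its probe set within the transgene, so it checks nothing. Xist was low on wild-type replicates 3 (2.22) and 4 (2.81) and stood at 13.61 to 13.93 on the other 5 arrays, so sex and genotype are partly confounded. Myeloid genes varied among the wild-type arrays: Lyz2, the lysozyme of macrophages and granulocytes, ran from 6.17 on replicate 1 to 11.45 on replicate 4 there and was at 10.85 to 11.59 in transgenic samples. Wild-type replicate 4 was the highest wild-type array in Lyz2, in Csf1r, the macrophage growth factor receptor (7.09, against 3.33 to 5.19 on the other 3), and in Mpo, the granulocyte peroxidase (6.95, against 2.85 to 3.23). Transgenic replicate 3 stood apart in T cell genes: the mean of 10 T cell markers was 7.73 there against 3.12 to 3.50 on the other 6 arrays. In such bulk samples fewer cells of a type and less RNA per cell cannot be told apart.

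Xcr1, the receptor by which cDC1 find cells that secrete XCL1, was at 2.86, 2.47, 2.47 and 3.12 on wild-type replicates 1 to 4 and at 4.77, 5.93 and 6.01 on transgenic replicates 1 to 3. No wild-type array was above background and all 3 transgenic arrays were, with transgenic replicate 1 the lowest of them. Against a level of 4 in wild type, Xcr1 was at least 2.96-fold higher. The fitted difference was 2.84 ± 0.34 (SE, limma adjusted p = 0.0111), and 1.57 with values under 4 set at 4 (adjusted p = 0.0303). The call was lost without wild-type replicate 2 (adjusted p = 0.0507) or transgenic replicate 2 (0.0607). Against wild-type replicates 1 and 2 alone, which share the high Xist level of the transgenic arrays, the difference was 2.90.

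Itgax was above background on every array. Its levels were 6.68, 5.49, 5.59 and 6.14 in wild type and 8.29, 9.01 and 10.58 in transgenic samples. The groups were 1.61 apart at their nearest arrays, and transgenic replicate 3 was the highest. The means were 5.97 ± 0.55 (SD, n = 4) and 9.29 ± 1.17 (SD, n = 3), a 9.96-fold rise with a 95% interval of 3.90-fold to 25.5-fold (limma adjusted p = 0.0244). The call was lost without wild-type replicate 2, 3 or 4 (adjusted p = 0.0762, 0.0668 and 0.0631) or transgenic replicate 2 (0.0882), and when transgenic replicate 3 and wild-type replicate 4 were left out together (0.0630), with differences of 2.73 to 3.46 in these fits.

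Itgax is carried by several cell types, and markers of some of them moved on the same arrays. Of 10 natural killer cell markers with a probe set, 5 were tested and 4 passed as higher, Gzma, Klrk1, Nkg7 and Klrd1, beside 8.11% of all genes. These 4 were above background on no wild-type array and entered the test only through the transgenic arrays, so their count is not read as support. The Gzma call was lost without any 1 wild-type array (limma adjusted p from 0.0739 to 0.0865) or transgenic replicate 2 (0.0789). It was also lost with values under 4 set at 4 (0.0760). Klrd1, a receptor chain of these cells, was at least 11.5-fold higher, and the list mean was 2.74 to 2.84 in WT and 4.62 to 5.87 in TG. Prf1, the perforin gene, was at 6.64 to 7.36 in wild type and 7.36 to 8.06 in transgenic samples and did not pass (limma adjusted p = 0.0929), and the defining marker Ncr1 was not above background on any array. Of 16 macrophage and monocyte markers, 7 were tested: Cd68, a lysosomal protein of macrophages, rose by 2.63, Ccr2 was at least 2.11-fold higher, and Spic, a factor of red pulp macrophages, fell by 0.99. Ccr2 was above background on no wild-type array and entered the test only through the transgenic arrays. With values under 4 set at 4 Ccr2 differed by 1.08 and did not pass (limma adjusted p = 0.155). The Cd68 call was lost without wild-type replicate 1, 2 or 3 (limma adjusted p = 0.0668, 0.0782 and 0.0710) or transgenic replicate 2 (0.0922), that of Ccr2 without every 1 array but transgenic replicate 1 (0.0542 to 0.126), and that of Spic without transgenic replicate 2 (0.0745). Lyz2, Csf1r, Adgre1 and Clec4a3 did not pass (adjusted p from 0.0924 to 0.312). Their list mean was 3.60 to 4.51 in WT and 4.44 to 5.78 in TG, so the groups overlapped, and Mertk, Cd14, Fcgr1, Cx3cr1 and C1qc were not above background on any array. All 6 tested granulocyte genes passed as higher, 3 of which (Ctsg, S100a8 and S100a9) entered the test only through the transgenic arrays; the Mpo call was lost without transgenic replicate 2 (0.0561). The mean of this list was 2.73 to 3.56 in WT and 7.52 to 8.69 in TG. Of 6 tested genes of plasma or activated B cells 1 rose, Jchain, the joining chain of secreted antibodies, by 1.91. That call was lost without wild-type replicate 1, 2 or 3 (0.0764, 0.0841 and 0.0692) or transgenic replicate 2 or 3 (0.100 and 0.0701). The part of all these cells in the level of Itgax was not tested.

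Fscn1 was reported by 4 probe sets, 2 of them above background. The brighter was at 8.18, 9.02, 8.43 and 9.05 in wild type and 10.41, 10.41 and 11.55 in transgenic samples. The dimmer was at 4.81, 6.05, 5.83 and 5.37 against 6.71, 6.73 and 7.41. Neither overlapped between the groups, and transgenic replicates 1 and 2 were close to each other in both. The differences were 2.12 ± 0.36 (SE, limma adjusted p = 0.0237) and 1.43 ± 0.33 (adjusted p = 0.0465). The other 2 probe sets were not above background on any array and were not tested.

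The call of the brighter Fscn1 probe set was lost without wild-type replicate 1, 2, 3 or 4 (adjusted p = 0.0564, 0.0657, 0.0655 and 0.0536) or transgenic replicate 2 (0.0757). That of the dimmer was lost whichever array was left out (0.0646 to 0.113). The differences themselves ran from 1.74 to 2.31 and from 1.20 to 1.61 in these fits, all positive.

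Batf3, the cDC1 factor, was at 4.09, 3.71, 4.32 and 4.56 in wild type and at 5.11, 6.86 and 7.78 in transgenic samples. Its nearest arrays were 0.54 apart and transgenic replicate 1 was well under the other 2. The difference of 2.41 ± 0.60 (SE) did not pass (limma adjusted p = 0.0548), and its 95% interval of 0.98 to 3.84 is wide. Without transgenic replicate 1 it was 3.15 and passed (adjusted p = 0.0135), and it also passed with quantile normalization, with the robust variance model and with array weights (0.0444, 0.0424 and 0.00891).

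Zbtb46 was above background with 1 of its 4 probe sets on every array. That probe set was at 5.03, 5.30, 4.71 and 5.30 in wild type and at 5.45, 6.09 and 6.92 in transgenic samples. The groups did not overlap, but transgenic replicate 1 lay only 0.16 above the highest wild-type array. The difference of 1.07 ± 0.34 (SE) did not pass (limma adjusted p = 0.0992, 95% interval 0.25 to 1.89), and without transgenic replicate 1 it was 1.42 and passed (adjusted p = 0.0403). A further probe set exceeded 4 on transgenic replicate 3 alone, at 4.67. The remaining 2 were not above background on any array.

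Siglech was at 2.17 on all 4 wild-type arrays and on transgenic replicates 1 and 2, the lowest level in the table. On transgenic replicate 3 it was at 4.60. It was above background on 1 array and was not tested, so a difference between the groups was not detectable with this probe set. The T cell markers were highest on that same array, and so were Ccr9 and Dntt of the pDC list, at 10.44 and 10.64 there against no more than 2.69 on the other arrays. Developing T cells also express both genes. The part of either cell type in the level of Siglech on that array was not tested.

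**Figure D2:**
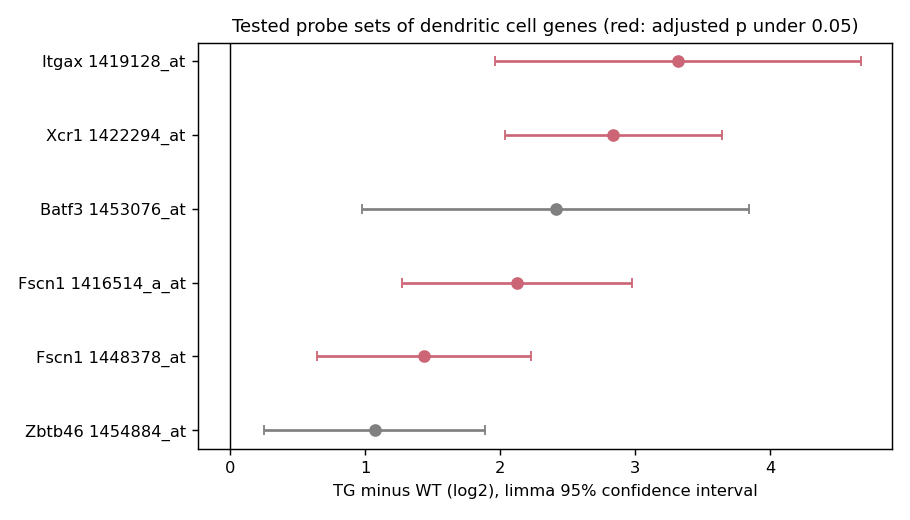
Difference TG minus WT (log2) with its limma 95% confidence interval for the 6 tested probe sets, red where the adjusted p was under 0.05. All 6 lie above 0, from 1.07 for Zbtb46 to 3.32 for Itgax; the Xcr1 point rests on wild-type values that are not above background.

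The patterns of other genes over the 7 arrays were set beside those of the members by Pearson's r, as a description. On these genes the genotypes lie apart, so each r holds the difference between them. The 3 genes most like Xcr1 were Cadm1 (r = 0.998), which is also in the cDC1 list, Tmem147 (0.997) and Rab32 (0.993). For Itgax they were Asf1b (0.998), Ampd2 (0.997) and Espl1 (0.996), and for Fscn1 they were Arl3 (0.996), Lmna (0.995) and Atp5l (0.994). Zbtb46 was most like Plscr3 (0.995), Spcs2 (0.992) and Zscan12 (0.990), and Batf3 most like C1qtnf12 (0.992), Tspan33 (0.992) and Ankrd28 (0.990).

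Further genes of these cells were taken from 6 lists that do not hold the members. Of their 119 genes 108 had a probe set and 75 were tested. In all, 17 passed as higher and 3 as lower, or 22.7% and 4.00% of those tested, beside 8.11% and 2.56% of all genes. Their median difference was 0.28, against 0.00 over all 9517 genes. Cadm1, Cd7, Esam and Anxa3, which passed as higher, were above background on no wild-type array and entered the test only through the transgenic arrays. The lists were also chosen with earlier results of these data known, so these counts are not read as support. Without transgenic replicate 3 and wild-type replicate 4 the count of calls was 16 in place of 20. It was 8 without wild-type replicate 2 or transgenic replicate 2, and 12 without wild-type replicate 3. The fit that takes Xist as a covariate gave 10 calls, and Id2, Csf2ra, Kit, Bcl6, Tyrobp, Havcr1, Irf8, Esam, Cd40, Ltb and Ppt1, described in the following paragraphs, did not pass (limma adjusted p from 0.0583 for Id2 to 0.155 for Cd40). Clec7a of the cDC2 list passed in that fit (difference 3.44, adjusted p = 0.0399) and not in the main fit (2.30, adjusted p = 0.100). Without wild-type replicates 3 and 4 the count of calls was 1, Rab7b (adjusted p = 0.0440), whose 2 remaining wild-type values were tied at 4.00, the background level.

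In the cDC1 list 12 of 15 genes with a probe set were tested, and 5 rose, 0 fell and 7 did not pass (median 0.79). Among all genes 8.11% passed as higher and 2.56% as lower. Cadm1, an adhesion molecule of cDC1, was at 3.60, 3.09, 3.09 and 3.60 in wild type and 5.34, 6.28 and 6.23 in transgenic samples, at least 3.86-fold higher (limma adjusted p = 0.0081). Like Xcr1 it was above background on the transgenic arrays only. Rab7b, a small GTPase of late endosomes, was between 3.86 and 4.00 in wild type and between 5.93 and 6.21 in transgenic samples, a difference of 2.12 ± 0.09 (SE, adjusted p = 0.000512). Its transgenic arrays were close together. Its wild-type arrays lay at the background level, with 2 of the 4 just above 4, so the small SE rests partly on values near background. Naaa, a lysosomal amidase, rose by 1.29 and Ppt1, a lysosomal thioesterase, by 0.96. The Ppt1 call was lost without wild-type replicate 2 or 3 (adjusted p = 0.0606 and 0.0510) or transgenic replicate 2 (0.0789), and with its dimmest tested probe set (difference 0.13, adjusted p = 0.580). Tlr3, the receptor for double-stranded RNA, rose by 0.72, a call that was lost without wild-type replicate 2 (adjusted p = 0.0514) or transgenic replicate 2 (0.0745). With its dimmest tested probe set Tlr3 differed by 0.48 and did not pass (0.137). Itgae, encoding CD103, differed by 2.12 and did not pass (adjusted p = 0.0605).

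The cDC2 list was mostly not above background. Of 13 genes with a probe set 5 were tested, 2 passed as higher and 3 did not pass (median 2.30, or 1.79 with values under 4 set at 4). The share of all genes that passed as higher was 8.11%. Cd7, which lymphocytes also express, was at least 9.72-fold higher (limma adjusted p = 0.0084), and Esam, an adhesion molecule of splenic cDC2, at least 3.07-fold (adjusted p = 0.0262). Both entered the test through their transgenic arrays alone. The Esam call was lost without any 1 wild-type array (adjusted p from 0.0670 to 0.0776) or transgenic replicate 2 (0.0674), and with values under 4 set at 4 (0.0721). Sirpa, a receptor of myeloid cells, had a difference of 1.58 (adjusted p = 0.0636). The integrin gene Itgam and the lectin genes Cd209a and Mgl2 were not above background on any array, and Clec10a exceeded 4 on transgenic replicate 3 alone, at 6.08.

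Of 24 pDC genes with a probe set 17 were tested, and 2 rose, 0 fell and 15 did not pass (median 0.23), beside 8.11% of all genes that passed as higher. Tyrobp encodes DAP12, the adaptor through which Siglec-H and many myeloid and natural killer receptors signal. It was at 9.70, 9.73, 9.90 and 10.31 in wild type and 10.65, 11.22 and 11.61 in transgenic samples, a rise of 1.25 ± 0.25 (SE, limma adjusted p = 0.0337). That call was lost without any 1 wild-type array (adjusted p from 0.0563 to 0.0948), without transgenic replicate 2 (0.111) or without transgenic replicate 3 (0.0593). Havcr1 rose by 1.92, lost without any 1 wild-type array (0.0570 to 0.0803) or transgenic replicate 2 (0.0726). Pld4, a nuclease gene, differed by 0.50 (adjusted p = 0.0592), and Bst2, which encodes the pDC antigen PDCA-1, by 1.00 (adjusted p = 0.203). Cox6a2, Upb1, Lag3, Clec4b1 and Smim5 were not above background on any array.

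The transcription factors of these cells had a median difference of 0.09, with 2 of 17 tested higher, 1 lower and 14 not passing. Over all genes 8.11% passed as higher and 2.56% as lower, so these counts are not read as a result about the list. Id2, a factor that cDC1 need and that natural killer cells also express, rose by 2.23 ± 0.29 (SE, limma adjusted p = 0.0144). Irf8, which cDC1, pDC and B cells all express, rose by 0.26 ± 0.05 (adjusted p = 0.0353), from a range of 12.78 to 12.86 to one of 13.01 to 13.18. The Id2 call was lost without wild-type replicate 2 (adjusted p = 0.0542) or transgenic replicate 2 (0.0696), and that of Irf8 without any 1 wild-type array (0.0692 to 0.0973) or transgenic replicate 2 (0.0951). Irf8 also did not pass with its dimmest tested probe set (difference 0.25, 0.125) or with quantile normalization (0.0512). Nfil3, a factor upstream of cDC1, was at 2.93 to 3.07 in wild type and at 3.95, 4.14 and 4.25 in transgenic samples, above background on 2 arrays and not tested.

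Neither relative of Batf3 passed. Batf, which can stand in for Batf3 in dendritic cells, differed by 0.28 ± 0.08 (SE, limma adjusted p = 0.0727), and Batf2 was not above background on any array. Tcf4, the E protein that pDC depend on and B cells also express, was at 11.86 to 11.90 in wild type and 11.85 to 12.07 in transgenic samples (adjusted p = 0.342). Bcl6, a repressor of germinal centre B cells that also acts in cDC1, fell by 0.96 (adjusted p = 0.0205), a call lost without wild-type replicate 2, 3 or 4 (0.0647, 0.0577 and 0.0578) or transgenic replicate 2 (0.0745).

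Receptors for growth factors were among the genes that rose. Of 11 tested receptor, ligand and signalling genes 3 passed as higher, 1 as lower and 7 did not pass (median 0.45). The shares of all genes were 8.11% higher and 2.56% lower. Flt3, the receptor that dendritic cell development depends on, was at 5.89, 5.95, 5.95 and 5.86 in wild type and 7.60, 8.09 and 7.61 in transgenic samples, a rise of 1.86 ± 0.13 (SE, limma adjusted p = 0.0027). The 2 groups were well apart on it and each was narrow. Csf2ra, a chain of the GM-CSF receptor, rose by 1.66, lost without wild-type replicate 2 (adjusted p = 0.0606) or transgenic replicate 2 (0.0756). Kit, the stem cell factor receptor of progenitors and mast cells, rose by 3.99, lost without wild-type replicate 2 or 3 (0.0651 and 0.0545) or transgenic replicate 2 (0.0739). Ltb, encoding lymphotoxin beta, fell by 0.25, lost whichever array was left out (0.0535 to 0.101). Xcl1, the ligand of XCR1, was not above background on any array. Flt3 and Kit are also genes of blood progenitors.

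**Figure D3:**
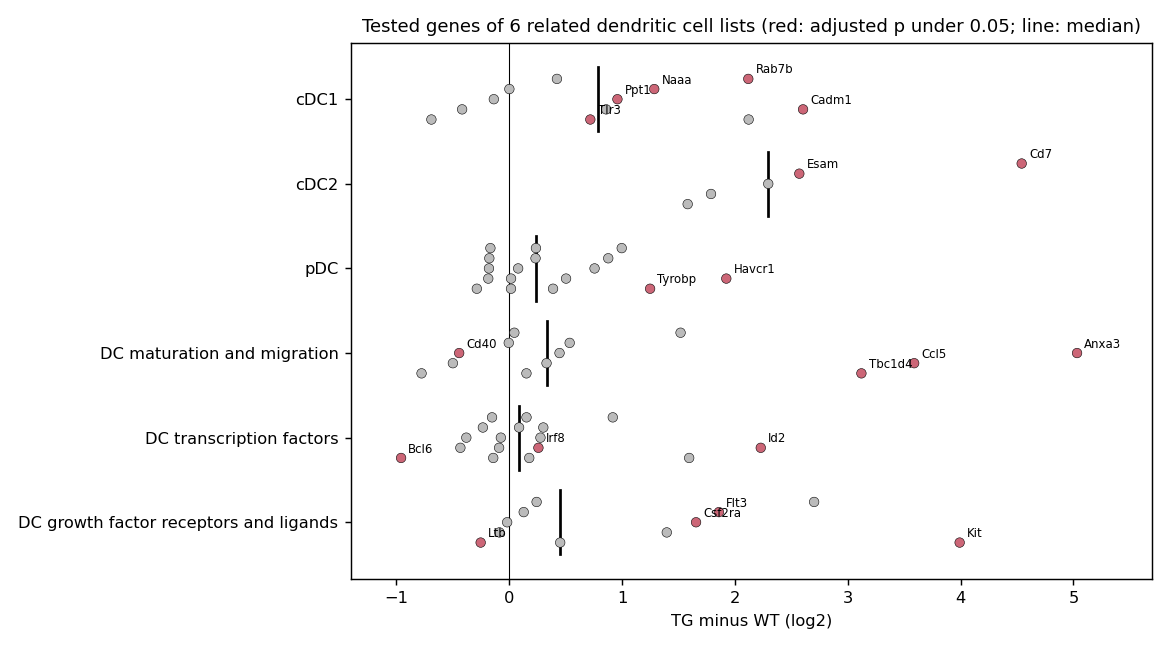
Difference TG minus WT (log2) of each tested gene in the 6 related lists (red: adjusted p under 0.05; black line: list median). The cDC1 and cDC2 medians are 0.79 and 2.30, and those of the pDC and transcription factor lists are 0.23 and 0.09.

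Of 13 maturation genes tested 3 rose, 1 fell and 9 did not pass (median 0.33), beside 8.11% higher and 2.56% lower of all genes. Anxa3, which granulocytes also express, was at least 11.0-fold higher (limma adjusted p = 0.0054), Ccl5, a chemokine that natural killer and T cells also make, rose by 3.59 (adjusted p = 0.0081) and Tbc1d4 by 3.12 (adjusted p = 0.0058). Cd40, the receptor for T cell help that B cells also carry, fell by 0.44 (adjusted p = 0.0495). It passed without transgenic replicate 3 (0.0371), and was lost without any other 1 array (0.0512 to 0.115). With its dimmest tested probe set Cd40 differed by -0.29 and did not pass (0.117). Ccr7, the homing receptor of migrating dendritic cells and of B cells, differed by -0.78 and did not pass (adjusted p = 0.146). The dendritic cell cytokine genes Ccl17 and Il12b were not above background on any array.

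**Figure D4:**
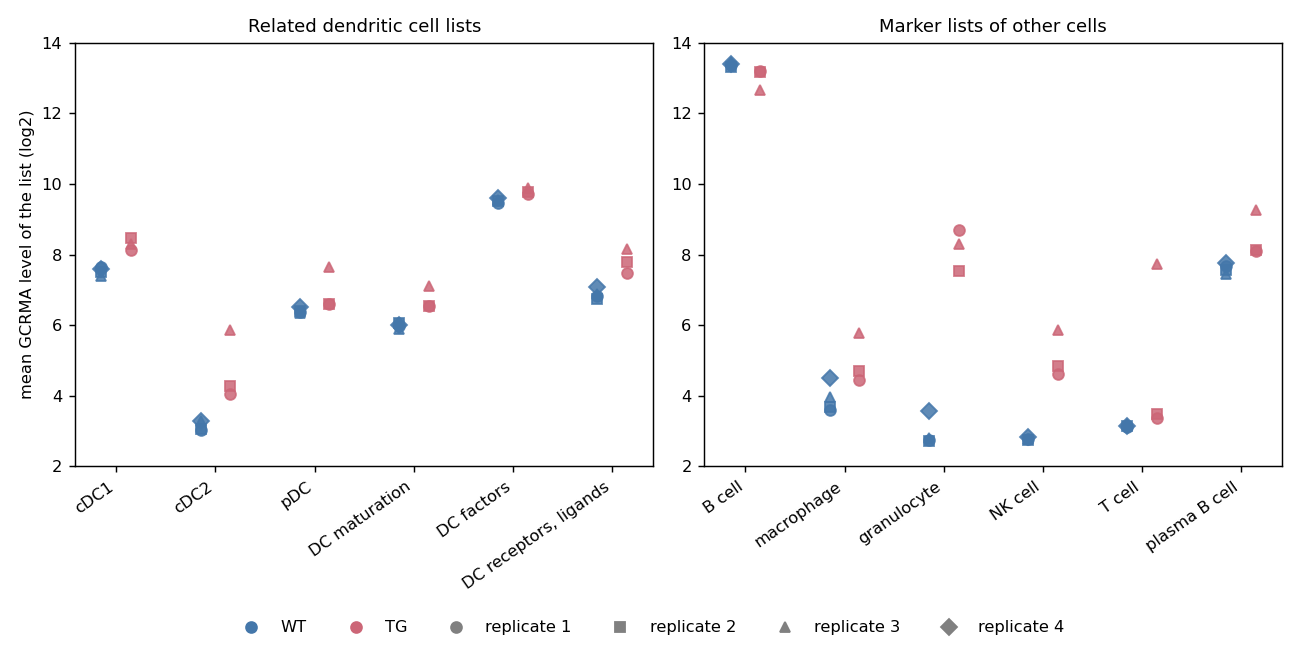
Mean GCRMA level (log2) of all genes with a probe set in each related list (left) and each marker list of other cells (right), 1 symbol per array, WT blue and TG red. The cDC1 mean is 7.38 to 7.64 in WT and 8.13 to 8.46 in TG; the T cell mean stands at 7.73 on transgenic replicate 3.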

How the data were processed

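The 7 members and the gene lists were chosen with earlier results of these data known. The authors deposited log2 levels; the submitters' processing notes name GCRMA without a version. A genome build was not named there. GCRMA corrects background from probe sequence, normalizes arrays to one distribution and leaves many dim probe sets at a common lowest value. Differences between values at that lowest level are therefore not seen. Those that rest on values under 4 depend on how such values are treated. For Xcr1 the difference was 2.84 as deposited and 1.57 with values under 4 set at 4. Probe sets above 4 on at least 3 of 7 arrays were tested (20994 of 45101; 9517 genes). A gene was represented by its tested probe set of highest mean. Transgenic was tested against wild type in limma 3.58.1 under R 4.3.3 (lmFit, eBayes with an intensity trend, two-sided, Benjamini-Hochberg over all tested probe sets, threshold 0.05). Genes not above 4 on any wild-type array have a bound, the transgenic mean against 4. Named are the members, up to 4 genes of smallest p per list, role partners of members, other-cell markers beside a member, and the 3 genes most like each member; the other list genes named were chosen after their values were seen. Probe names come from the platform annotation, which can be old; start regions and the microRNA come from RefSeq (GRCm38.p6), and no protein sequences were used. On simulated data 74.0% of changes of 1 and 94.0% of changes of 2 were recovered among 20994 probe sets. The simulated errors were normal and independent between probe sets, with no common lowest value and no array differences shared among genes. Those shares therefore do not give the recovery in the real arrays. Alternatives changed the filter, normalization, floor, variance model, weights, probe set, sex covariate, block and arrays. The number of arrays limits precision, and no scan batch was used.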

Additional observations from a re-analysis of the deposited data

How the results depend on the processing

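The differences of the 6 tested member probe sets stayed positive under every alternative run on them, and their calls did not all hold. Of 5 tested member genes 3 passed as reported. With limma the count was 0 with no filter (5 had an unadjusted p under 0.05), 0 with the Xist level as a covariate (4 unadjusted), 0 with wild-type replicates 3 and 4 left out (4 unadjusted) and 5 with array weights. Leaving out each array in turn gave 0 to 5 (5 unadjusted in each), with 0 without wild-type replicate 2 or transgenic replicate 2 and 1 without wild-type replicate 3 or 4. For the related lists, 20 calls became 8, 10, 1 and 35 in the same order of settings, and 8 to 22 when each array was left out. With the replicate block, which leaves out wild-type replicate 4, 0 member genes (4 unadjusted) and 0 related genes (31 unadjusted) passed. The labels do not state that the replicate numbers pair mice. Deviations of same-numbered arrays from their group means correlated at -0.04, -0.14 and -0.29, and so few arrays cannot decide whether mice were paired. These settings also moved the count over all genes: 1016 as reported, 116 with no filter, 156 with Xist, 12 without wild-type replicates 3 and 4, 3 with the block, 408 without transgenic replicate 3 and wild-type replicate 4, 2763 with array weights and 87 to 1074 with 1 array left out. The stricter filter, above 6, tested 2 of the member genes, and both passed. Differences with GCRMA values near the lowest level are limited by signal over background.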

Other observations

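The spread over the transgenic arrays differed among these genes. On Itgax and Batf3 the 3 transgenic arrays spanned 8.29 to 10.58 and 5.11 to 7.78, with transgenic replicate 3 highest, as on all 5 tested member genes. Rab7b, Naaa and Flt3 spanned 5.93 to 6.21, 9.63 to 10.19 and 7.60 to 8.09, and transgenic replicate 2 was highest on each. The cDC1 list mean was highest on transgenic replicate 2 (8.46, against 8.29 on replicate 3 and 8.13 on replicate 1). The means of the cDC2, pDC and maturation lists were highest on transgenic replicate 3, at 5.86, 7.66 and 7.12 against 4.04 and 4.28, 6.60 and 6.60, and 6.54 and 6.54 on the other transgenic arrays. The T cell mean was also highest on transgenic replicate 3. The cDC2 list holds the T cell marker Cd4, and the pDC list holds Ccr9 and Dntt, which developing T cells also express. The part of such genes in these means was not tested. C1qa, a complement gene of macrophages, was at 5.97 on transgenic replicate 3 and at 2.17 on the other 6 arrays, while C1qc was not above background on any array. Differences between arrays of a group were not tested.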
